A study of Mus musculus with 18 samples.

Results

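Potassium channel subunits were followed in cultured sensory neurons after their axons were cut. They were taken as all protein-coding genes whose GENCODE vM21 symbol starts with Kcn, which gave 94 of the 47643 genes counted in each library. Of these, 55 had CPM values (counts scaled to a library's total) over 1 in at least 3 of the 18 libraries and were tested, and 39 were not. By 16 hours post injury (HPI), 28 of the 55 tested genes were lower than in uninjured cultures and 4 were higher, beside 11.5% and 10.7% of all genes tested. Of the 28 that fell, 18 encode voltage-gated channels, among them Kcna2, Kcnd1 and Kcnd2, as do 29 of the 55 tested.

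Potassium channels are membrane proteins that let potassium leave the cell, which holds the resting membrane potential near its negative value and ends the action potential. Voltage-gated channels (Kv and EAG families) open on depolarization, inward rectifiers (Kir) and K2P leak channels act near rest, and a further group opens on calcium or sodium. Auxiliary subunits such as Kv beta, KChIP and BK beta carry no pore and change the trafficking or gating of the channels. In sensory neurons these genes set excitability, the shape of the spike and the transition from single to repetitive firing.

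The cultures were eDRG spots, dorsal root ganglion cells of E13.5 CD-1 mouse embryos plated as a spot and grown with nerve growth factor and the mitotic inhibitor FDU. Control cultures were collected uninjured at DIV7 (day in vitro), and the other cultures were cut with a blade and lysed 1, 3, 8, 16 or 24 hours later, with 3 replicates in each of the 6 groups. All groups had the same strain, embryonic age, medium and FDU. The labels place collection of every group on DIV7, whereas the study places the cut there, in which case injured cultures were older than controls by the hours since injury, and time in culture and time after injury cannot be told apart. The model holds embryonic cells in a dish, apart from target tissue and the circulation. The labels do not say whether replicates came from separate litters or platings, so the p-values measure the spread between these samples, which may be technical.

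Counts on genes summed to 9478891 in the shallowest library and 23082327 in the deepest, and 3 counts corresponded to between 0.131 and 0.318 normalized CPM. Replicates with the same number deviated together across groups, so the replicate number was used as a batch in the fit. In several channel genes the same replicate number was the highest in every group. Kcnv1 had 63.5 CPM in control replicate 1 against 12.5 and 13.4 CPM in replicates 2 and 3, and replicate 1 was the highest of the 3 in all 6 groups. The same held for Kcnj3, Kcnk18 and Kcnj2, while Kcnk1 was highest in replicate 2 in all 6 groups. Values within each batch are therefore given with these genes.

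A list of 12 sensory neuron markers had summed levels between 10210 and 10890 CPM in control and between 8657 and 9543 CPM at 16 HPI, a mean 12.2% below control. At 16 HPI 5 of the 12 were lower and 0 higher, beside 11.5% and 10.7% of all tested genes. The 94 Kcn genes had a summed level of 2873 ± 9.29 CPM in control and 2317 ± 32.6 CPM at 16 HPI (SD, n = 3), which was 19.4% below control. At 24 HPI the Kcn sum was 12.7% and the marker sum 10.8% below control. The marker list went both ways at 24 HPI, with 5 of the 12 lower and 2 higher, beside 9.03% and 5.99% of all tested genes. Fewer neurons and less RNA of these genes per neuron cannot be told apart in bulk libraries, and the part of the marker difference in the channel results was not tested. Satellite glia and Schwann cell markers lay between 165 and 249 CPM in control and between 153 and 207 CPM at 16 HPI, with 1 of the 6 tested genes lower. Fibroblast markers lay between 2.58 and 9.68 CPM in control and between 4.53 and 14.7 CPM at 16 HPI, with 1 of the 4 tested genes higher. Myeloid markers lay between 3.61 and 5.79 CPM in control, 5.73 and 5.97 CPM at 16 HPI and 6.81 and 7.24 CPM at 24 HPI, and 1 of the 2 tested genes, Cd68, was higher at both times (0.97 ± 0.25 and 0.93 ± 0.24, adjusted p = 0.00698 and 0.0125). The defining myeloid genes Ptprc and Tyrobp had at most 3 counts in every library but 24 HPI replicate 3, with 8 and 7. At 16 HPI 1 of 2 tested endothelial and mural genes (Rgs5) and 1 of 3 tested erythroid genes (Hba-x) were lower, with summed levels between 4.91 and 7.62 and between 4.17 and 15.4 CPM in control and between 2.65 and 4.19 and between 1.49 and 12.4 CPM at 16 HPI. Residual rRNA genes took 1.45% to 2.5% of counts in the 3 libraries of 16 HPI and 0.951% to 1.42% in the other 15. With rRNA and mitochondrial genes left out, the Kcn counts at 16 HPI were again 28 lower and 4 higher. Leaving them out changes only library totals and normalization, so the part of RNA quality in the 16 HPI results was not tested.

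The selectivity filter is the stretch of the pore that picks potassium over sodium, and its codons are shared by most genes with a pore. Codons of its tyrosine form (ACNNTNGGNTANGGN, read in frame on the coding strand) were found in 55 of 77 pore genes and in 69 of 21782 protein-coding genes, 0.317%. A form with phenylalanine or leucine codons in place of the tyrosine codon (NTNGGNTTNGGN) was found in 24 pore genes and in 3.8% of protein-coding genes. Either form was present in 71 of the 77 pore genes and in 0 of the 17 auxiliary or other members. All 8 EAG genes carried only the phenylalanine or leucine form, and Kcnk18, a K2P gene with 2 pore loops, carried 1 of each. Neither form was found in Kcnj14, Kcnk1, Kcnk7, Kcnn1, Kcnn2 or Kcnn3. The coding sequence around the filter is shown on GRCm38 for genes whose time courses are described below, with the 3 filter codons in capitals. Pore genes that fell and rose can thus be compared.
Kcna2, chr3:107105218-107105244, plus strand: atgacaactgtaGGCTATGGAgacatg
Kcnv1, chr15:45109283-45109309, minus strand: atgactacagtaGGATATGGGgacatt
Kcnd2, chr6:21217400-21714147, plus strand, across an intron: atgacaacactgGGGTATGGCgacatg
Kcnh6, chr11:106019070-106019096, plus strand: ctcactagtgtgGGCTTCGGCaatgtg
Kcnt1, chr2:25894361-25894387, plus strand: ttctcaactgtgGGCTTCGGTgatgtg
Kcnj3, chr2:55437621-55437647, plus strand: gaggccaccatcGGCTATGGCtaccgc
Kcnj6, chr16:94832771-94832797, minus strand: gaaaccaccatcGGTTATGGCtaccgg
Kcnk18, tyrosine form, chr19:59225527-59234823, plus strand, across an intron: ttcagcacagtgGGTTATGGCcacatg
Kcnk18, phenylalanine form, chr19:59235421-59235447, plus strand: ctgaccaccatcGGGTTTGGGgacatc
Genes of either form were among those that fell after injury, with Kcna2 and Kcnd2 for the tyrosine form and Kcnh6 and Kcnt1 for the other. Kcnj3 and Kcnj6 carried the same form and moved in opposite directions.

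To compare levels between genes, CPM was divided by the union of exons in kilobases (RPKM). In control, 43 of the 94 genes had a mean RPKM over 1, 22 over 5, 9 over 10 and 5 over 20. Over the longest transcript in place of all exons the counts were 44, 25, 15 and 6. Kcnab2, a Kv beta subunit that binds Kv1 channels, was the highest at 92.4 ± 4.11 RPKM (SD, n = 3). Kcna6, a Kv1 pore subunit, followed at 36.4 ± 4.41 RPKM, Kcnh6, an ERG channel of the EAG family, at 25.7 ± 3.95 RPKM and Kcnd1, a Kv4 channel of the A-type current, at 21.1 ± 2.14 RPKM. Kcnh6 and Kcnd1 did not differ beyond their spread. Kcnb2 of the Kv2 family was at 18.4 ± 0.725 RPKM and Kcna1 at 17.9 ± 1.86 RPKM, which were within their spread of each other.

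**Figure D1:**
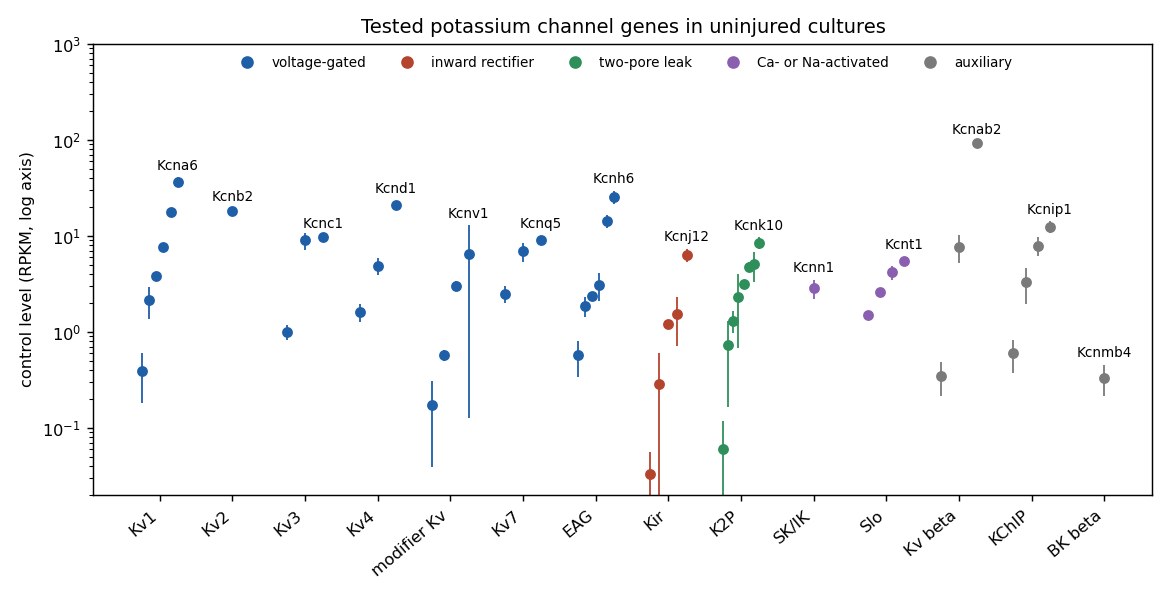
Mean level of 52 tested genes in the 3 control libraries by subfamily, in RPKM on a log axis, with SD bars that are cut where they reach below the axis. Each point is a gene and the highest drawn in each subfamily is named. Kcnab2 lies above all others at 92.4 RPKM, and Kcnj6 is the lowest at 0.0331 RPKM.

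The families were unevenly represented. All members of Kv2, Kv3, Kv4, Slo, Kv beta and KChIP were tested. Of the 15 Kir genes 5 were tested, of the 14 K2P genes 8, of the 10 modifier Kv genes 4, of the 4 SK/IK genes only Kcnn1, of the 4 BK beta genes only Kcnmb4, and of the 5 KCNE genes none. Of the 39 untested genes, 12 had at most 3 counts in every library, among them Kcnq1, Kcnj5 and Kcnj8, which was not detectable at this depth. Kcnj10, the inward rectifier of satellite glia, had 3, 1 and 16 counts in control and 25 counts in 24 HPI replicate 3, its highest value. Kcnn4, the calcium-activated channel of immune cells, had at most 5 counts in any library.

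The number of genes that passed the test was highest at 16 HPI. A gene passed with an adjusted p under 0.05 from edgeR's quasi-likelihood test. The share of all 13771 tested genes that passed in the same direction is given beside each edgeR count. Shares by DESeq2 are not given, so its counts cannot be set against all genes. At 1 HPI, 1 of 55 Kcn genes was lower (0.182% of all genes) and 0 were higher (0.0944%), with 15 lower (7.31%) and 2 higher (5.53%) at an unadjusted p under 0.05, and DESeq2 called 4 lower and 1 higher. At 3 HPI, edgeR called 0 lower (0.145%) and 0 higher (0.0436%), with 8 lower (8.28%) and 2 higher (6.24%) at an unadjusted p under 0.05, and DESeq2 called 1 lower. At 8 HPI, 9 were lower (3.9%) and 1 was higher (3.78%). At 16 HPI, 28 were lower (11.5%) and 4 were higher (10.7%). At 24 HPI, 19 were lower (9.03%) and 0 were higher (5.99%), with 3 higher at an unadjusted p under 0.05 (12.8%) and 0 by DESeq2. Across all time points together, 36 of 55 genes changed (30.0% of all genes).

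Most of these changes were small. At 16 HPI only 6 of the 28 lower genes were past 1.5-fold. Kcnk18, Kcnj3 and Kcnd2 were the 3 past 2-fold (0.312% of all genes), and Kcnj6 was the 1 higher past 2-fold (1.18%). Kcnk18 was also past 2-fold lower at 24 HPI (0.182%). From 8 to 16 HPI, Kcnk18 and Kcnj2 fell (0.138%) and Kcnj6 rose (0.799%) past 2-fold. The median log2 fold change of the 55 genes was -0.12, -0.08, -0.12, -0.30 and -0.16 at 1, 3, 8, 16 and 24 HPI, against 0.00 over all tested genes at each time. At 16 HPI the median was -0.31, -0.28 and -0.20 within batches 1, 2 and 3. In all, 39 of 55 genes (70.9%) had a log2 fold change under 0 at 16 HPI, against 50.5% of all tested genes. For 17 of 55 genes every 16 HPI library was below every control library (9.49% of all genes), and for 2 every library was above (10.9%).

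**Figure D2:**
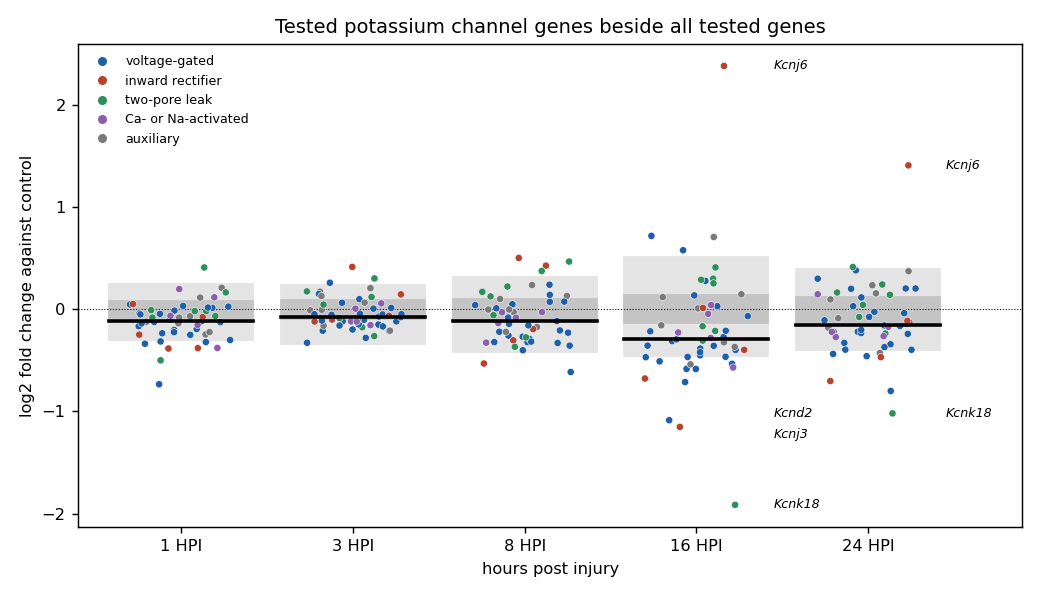
Log2 fold change of 52 tested Kcn genes against control at each time (points, colored by class, with the median of all 55 as a black bar) beside all 13771 tested genes (dark band from the 25th to the 75th percentile, light band from the 5th to the 95th). The median of the Kcn genes is lowest at 16 HPI, at -0.30, where 14 of the 52 genes lie below the light band and 4 above it.

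The counts depended on the replicate block and on single libraries. Without the block, 0 genes were lower at 8 HPI, 11 at 16 HPI and 2 at 24 HPI, and 5 changed over the time course. Shares of all tested genes under the alternatives are not given, so these counts do not show whether calls fell for all genes alike. At 8 HPI, leaving out control replicate 1 or 2 or 8 HPI replicate 1 gave 5 lower genes, and leaving out 8 HPI replicate 3 gave 3. The 24 HPI count of lower genes was 9 without control replicate 1 and 10 without either of 24 HPI replicates 1 and 2. At 16 HPI, between 22 and 26 were lower with any control or 16 HPI library left out, and 2 were higher without control replicate 2, without the block or by DESeq2.

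The group mean of 28 of the 55 genes was lowest at 16 HPI (23.7% of all genes), and that of 26 was highest in control (18.9%). From 8 to 16 HPI, 18 genes fell further (7.88%) and 4 rose (7.3%). From 16 to 24 HPI, 8 rose (3.59%) and 0 fell (6.22%), with 5 lower at an unadjusted p under 0.05 (12.9%) and 0 by DESeq2. Without the block, 3 genes fell and 0 rose from 8 to 16 HPI, and 0 rose from 16 to 24 HPI. Without 16 HPI replicate 1, 11 fell from 8 to 16 HPI and 4 rose from 16 to 24 HPI, 2 rose from 8 to 16 HPI without 8 HPI replicate 3, and 5 rose to 24 HPI without 24 HPI replicate 3.

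**Figure D3:**
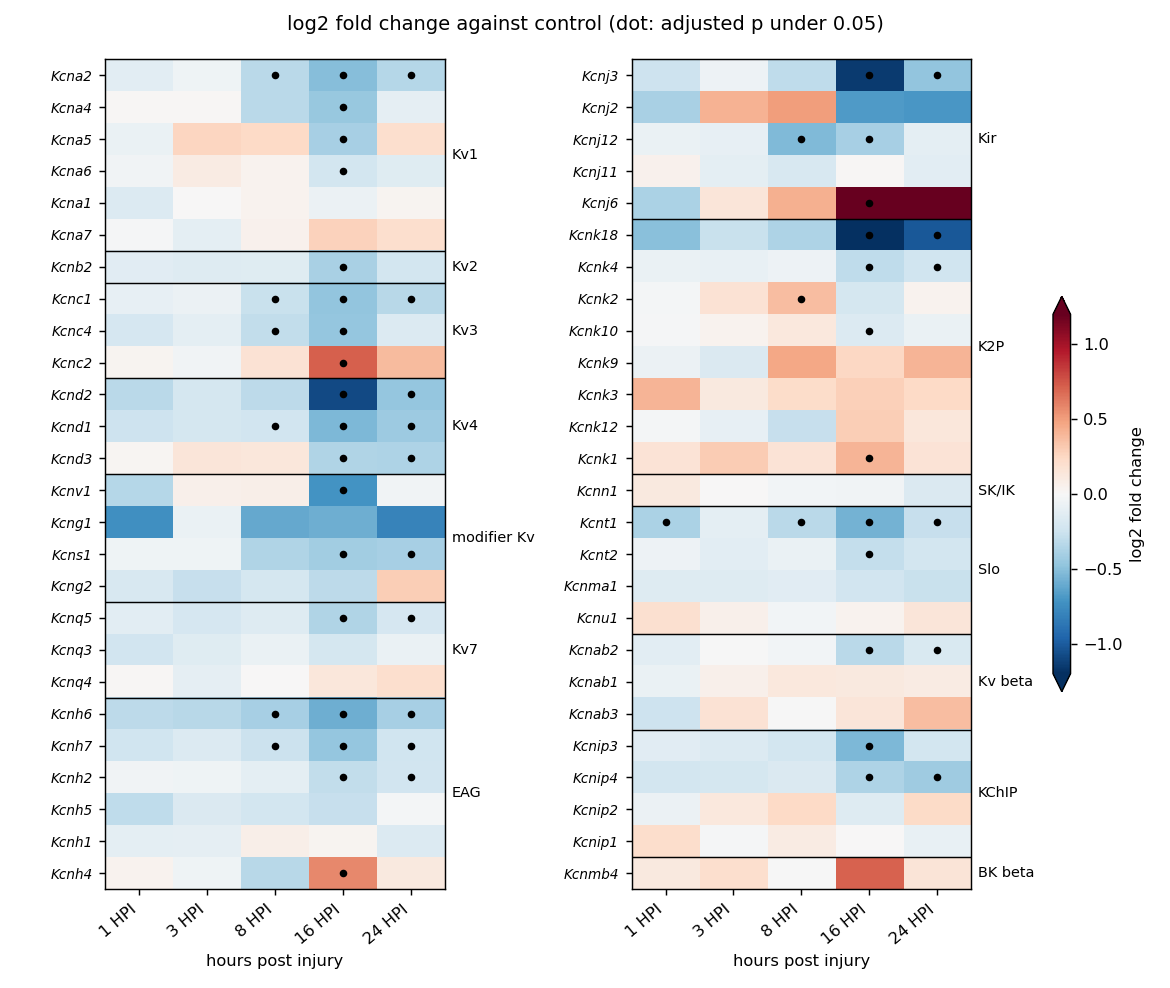
Log2 fold change against control of 52 tested genes at each time, grouped by subfamily and ordered within it by the 16 HPI value. Black dots mark an adjusted p under 0.05, and colors end at 1.2 in either direction. Of the 52 genes, 26 carry a dot and are lower in the 16 HPI column and 4 carry a dot and are higher.

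Voltage-gated channels were the largest class, with 29 of the 55 tested genes in Kv1 to Kv4, the modifier Kv group, Kv7 and EAG. Of the 29, 18 were lower and 2 higher at 16 HPI (11.5% and 10.7% of all genes), with a median log2 fold change of -0.36, and 13 were lower at 24 HPI (9.03%). Outside this class 10 of 26 were lower at 16 HPI, and the classes were not tested against each other. Kcnb2 encodes a Kv2 channel of the slow delayed rectifier current, which sets how fast a neuron can repolarize between spikes. Kcnb2 had 272, 291 and 273 CPM in control and 237, 184 and 220 CPM at 16 HPI, a log2 fold change of -0.39 ± 0.08 (SE, adjusted p = 0.00140).

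The Kv1 family, low-threshold channels that restrain repetitive firing, split between Kcna2 and Kcna1. Kcna2 had 94.6, 88.8 and 88.5 CPM in control, 75.1, 71.2 and 71.4 CPM at 8 HPI and 63.7, 61.9 and 64.9 CPM at 16 HPI. Each group lay wholly below the one before it. The log2 fold change was -0.32, -0.51 and -0.34, each ± 0.05 (SE), at 8, 16 and 24 HPI (adjusted p = 0.000744, 1.00e-06 and 0.000150), and the 8 HPI call was lost without the block (adjusted p = 0.102). Kcna1 had 94.6, 84.9 and 76.9 CPM in control and 88.4, 77.3 and 78.3 CPM at 16 HPI. Its groups overlapped and its log2 fold change of -0.07 ± 0.05 did not pass (adjusted p = 0.378), and the difference between the 2 genes was not tested. Kcna6, the most abundant Kv1 gene, had 244, 215 and 192 CPM in control and 202, 176 and 180 CPM at 16 HPI. Its groups overlapped, but it was lower within each batch, by -0.27, -0.28 and -0.09 on the log2 scale (adjusted p = 0.00335, and 0.201 without the block). An antisense gene overlaps 39.6% of the exon bases of Kcna6, and the sources used here do not state whether reads were counted by strand. Of the 6 tested Kv1 genes, 4 were lower at 16 HPI (11.5% of all genes).

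Kv3 channels repolarize the spike fast enough for high firing rates, and Kcnc1 was the highest of them in control. It had 89.5, 97.0 and 88.2 CPM in control and 57.2, 70.0 and 71.4 CPM at 16 HPI, with no overlap, and a log2 fold change of -0.47 ± 0.07 (adjusted p = 5.99e-05). It was also lower at 8 and 24 HPI (-0.27 and -0.33, adjusted p = 0.0232 and 0.00282). The 8 HPI call was lost without the block (0.466), with the GC and length correction (0.118) and without control replicate 1 (0.117) or 2 (0.0640) or 8 HPI replicate 1 (0.153) or 2 (0.0787), and the 24 HPI call without the block (0.172). Kcnc2 of the same family went up at 16 HPI, and is named after its values were seen. It had 8.64, 6.34 and 6.41 CPM in control and 13.4, 10.6 and 11.1 CPM at 16 HPI, above every control library, a log2 fold change of 0.72 ± 0.13 (adjusted p = 0.000379), and this call held under every alternative.

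All 3 Kv4 genes, which carry the A-type current that delays firing, were lower at both 16 and 24 HPI (11.5% and 9.03% of all genes). Kcnd2 had 10.1, 8.26 and 6.55 CPM in control, 4.12, 4.13 and 3.35 CPM at 16 HPI and 8.02, 4.81 and 5.39 CPM at 24 HPI. The 16 HPI libraries lay below every control and every 24 HPI library, and the 24 HPI and control libraries overlapped. The log2 fold change at 16 HPI was -1.09 ± 0.14 (adjusted p = 1.06e-05), and without 16 HPI replicate 1 it was -0.998, just short of 2-fold. At 24 HPI it was -0.46 ± 0.13 (adjusted p = 0.0164), a call lost without the block (0.430), without control replicate 1 (0.0794) or without 24 HPI replicate 2 (0.138). Kcnd1 had 98.5, 118 and 119 CPM in control, 67.4, 79.8 and 83.7 CPM at 16 HPI and 68.5, 92.1 and 86.4 CPM at 24 HPI. Its injured libraries at both times lay below every control library. The fitted change was -0.53 ± 0.06 at 16 HPI (adjusted p = 5.43e-06) and -0.44 ± 0.06 at 24 HPI (adjusted p = 9.23e-05, and 0.0782 without the block). Kcnd3 had 53.8, 51.8 and 35.9 CPM in control and 36.0, 34.7 and 38.5 CPM at 16 HPI. Batches 1 and 2 were lower by -0.58 each on the log2 scale and batch 3 was higher by 0.10. The fitted value at 16 HPI was -0.36 ± 0.12 (adjusted p = 0.0311), and the call was lost without the block (0.139), by DESeq2 (0.0806) and without control replicate 1 (0.218) or 2 (0.151) or 16 HPI replicate 1 (0.109) or 2 (0.127). At 24 HPI Kcnd3 had 41.2, 35.1 and 32.8 CPM, and -0.37 ± 0.12 (adjusted p = 0.0333) was lost in 7 of 12 alternatives, with adjusted p from 0.0905 to 0.220.

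KChIP proteins bind Kv4 channels and raise their surface level, and 2 of the 4 were lower at 16 HPI (11.5% of all genes). Kcnip3 had 22.7, 26.6 and 34.9 CPM in control and 13.7, 19.6 and 24.7 CPM at 16 HPI. Its groups overlapped, but each batch was lower, by -0.72, -0.44 and -0.50 on the log2 scale, and the fitted value was -0.54 ± 0.08 (adjusted p = 5.85e-05, and 0.188 without the block). Kcnip1, the most abundant KChIP, had 75.0, 67.9 and 89.2 CPM in control and 70.7, 69.5 and 94.0 CPM at 16 HPI, a log2 fold change of 0.01 ± 0.05 (adjusted p = 0.949) whose sign changed in 4 alternatives. It passed over the whole time course (adjusted p = 0.00219) and was highest at 1 HPI, with 82.8, 81.6 and 104 CPM, which did not pass against control (0.21 ± 0.05, adjusted p = 0.0833). The Kv beta gene Kcnab2 had 538, 492 and 515 CPM in control and 405, 422 and 406 CPM at 16 HPI, with no overlap and a log2 fold change of -0.32 ± 0.06 (adjusted p = 0.000199).

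Modifier Kv subunits form no channel on their own and join Kv2 subunits. Kcnv1 had 63.5, 12.5 and 13.4 CPM in control, 66.5, 11.0 and 16.2 CPM at 8 HPI, 36.7, 6.62 and 9.88 CPM at 16 HPI and 59.0, 9.11 and 17.2 CPM at 24 HPI. The spread between batches was larger than the change, so the groups overlapped, but the 16 HPI library was the lowest of the 6 within each batch. The log2 fold change was -0.79, -0.90 and -0.43 within batches and -0.71 ± 0.10 in the fit (adjusted p = 3.20e-05, and 0.784 without the block). It fell by 0.79 from 8 to 16 HPI (adjusted p = 3.59e-05) and rose by 0.67 to 24 HPI (0.000185), where the difference from control was -0.04 ± 0.09. Without the block these steps had an adjusted p of 0.803 and 0.935. Kcns1, a silent subunit of sensory neurons, had 9.05, 7.08 and 8.53 CPM in control and 5.83, 5.94 and 6.75 CPM at 16 HPI, with no overlap and -0.42 ± 0.13 (adjusted p = 0.0216). That call was lost without the block (0.116), without control replicate 1 (0.161) and without 16 HPI replicate 1, 2 or 3 (0.0715, 0.0532 and 0.0535).

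Kv7 channels carry the M-current, a steady brake on firing. Of the 4 tested Kv7 genes, 2 were lower at 16 HPI (11.5% of all genes) and 2 at 24 HPI (9.03%). Over the time course 3 changed (30.0%). Kcnq3, a subunit of these channels, had 32.9, 45.4 and 32.2 CPM in control and 32.3, 29.5 and 32.2 CPM at 16 HPI. It was lower in batch 2 by -0.62 on the log2 scale and near 0 in the others, and did not pass (-0.21 ± 0.09, adjusted p = 0.112). The EAG family holds the ERG channels, and Kcnh6 had 79.3, 87.7 and 107 CPM in control, 66.6, 73.8 and 66.9 CPM at 8 HPI, 54.1, 63.5 and 64.3 CPM at 16 HPI and 62.6, 67.3 and 77.8 CPM at 24 HPI. All 9 of these injured libraries were below every control library. The log2 fold change was -0.40, -0.59 and -0.40, each ± 0.08 (SE), with adjusted p = 0.00393, 2.16e-05 and 0.00171. The 8 HPI call was lost without the block (0.221) and without 8 HPI replicate 3 (0.0554), and the 24 HPI call without the block (0.136). Of the 6 tested EAG genes, 3 were lower (11.5% of all genes) and 1, Kcnh4, was higher (10.7%) at 16 HPI. Kcnh4, named after its values were seen, had 1.83, 1.62 and 3.32 CPM in control and 3.70, 2.32 and 4.16 CPM at 16 HPI, overlapping, with 0.58 ± 0.18 (adjusted p = 0.0288). Its call was lost without the block (0.407), by DESeq2 (0.0937) and without control replicate 1 (0.143) or 2 (0.0701) or 16 HPI replicate 1 (0.136) or 3 (0.0602).

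**Figure D4:**
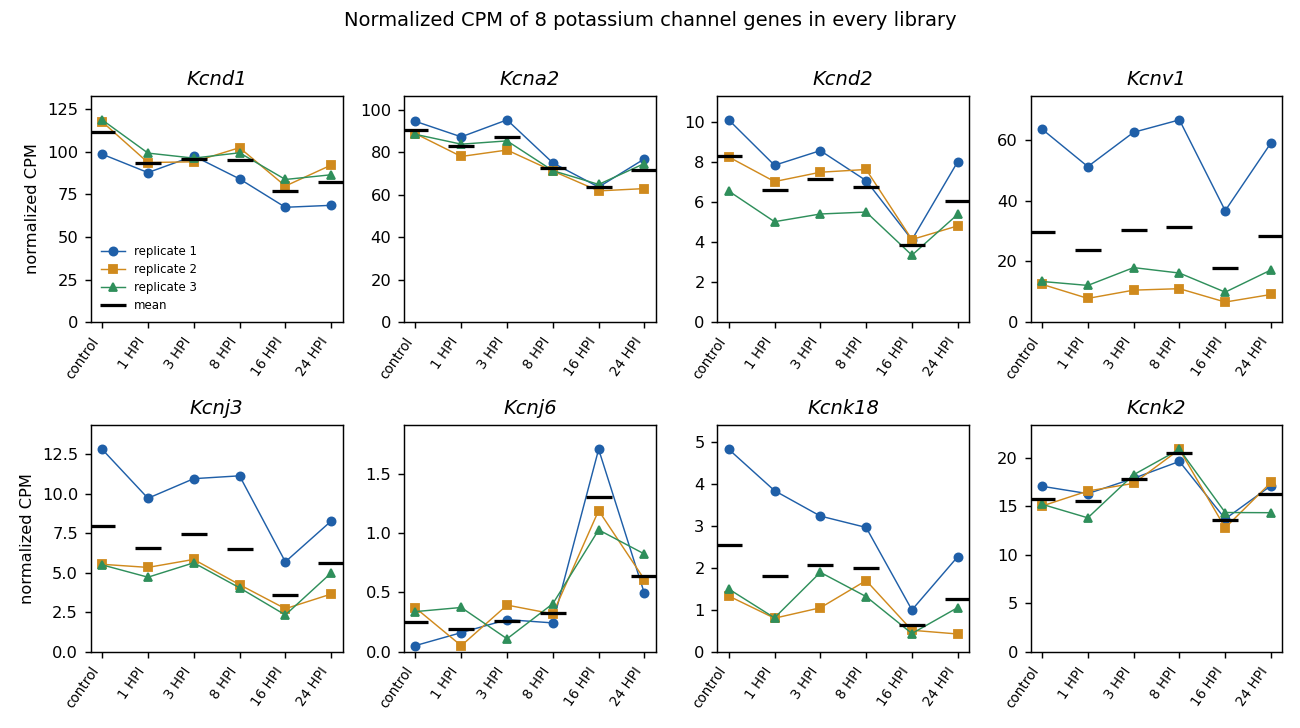
Normalized CPM of Kcnd1, Kcna2, Kcnd2, Kcnv1, Kcnj3, Kcnj6, Kcnk18 and Kcnk2 in every library, with lines joining libraries of the same replicate number and a black bar for the mean of each group, on linear axes that start at 0. Replicate 1 lies above the others for Kcnv1, Kcnj3 and Kcnk18 in all groups, and the 16 HPI library is below the control library of the same number for every gene but Kcnj6.

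K2P channels give neurons their potassium leak. At 16 HPI 3 of the 8 tested were lower (11.5% of all genes) and 1 was higher (10.7%), with a median log2 fold change of 0.04. Kcnk18 (chromosome 19, 59219214 to 59237374 on GRCm38) encodes TRESK, a leak channel that is largely restricted to sensory neurons and is activated through calcineurin. It had 4.83, 1.33 and 1.49 CPM in control, 0.995, 0.510 and 0.432 CPM at 16 HPI and 2.27, 0.421 and 1.05 CPM at 24 HPI. The 16 HPI libraries, with 14, 9 and 8 counts, were below every control library, which had 95, 18 and 31 counts. The log2 fold change was -2.16, -1.21 and -1.56 within batches and -1.91 ± 0.32 in the fit (adjusted p = 0.000164, and 0.160 without the block). At 24 HPI it was -1.02 ± 0.27 (adjusted p = 0.0133). The 24 HPI call was lost without the block (0.587), without control replicate 1 (0.134) and without 24 HPI replicate 1 (0.0628) or 2 (0.0528).

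Kcnk2, the mechanically gated leak channel TREK-1, took another course. It had 17.1, 15.0 and 15.2 CPM in control, 19.7, 20.9 and 20.9 CPM at 8 HPI, 13.7, 12.8 and 14.4 CPM at 16 HPI and 17.1, 17.5 and 14.4 CPM at 24 HPI. All 8 HPI libraries were above, and all 16 HPI libraries below, every control library. The rise at 8 HPI was 0.37 ± 0.09 (adjusted p = 0.0126), and Kcnk2 was the 1 gene higher at that time. It was lost without the block (0.120) and when control replicate 2 (0.0628) or 3 (0.0574) or 8 HPI replicate 3 (0.102) was left out. From 8 to 16 HPI it fell by 0.59 ± 0.09 on the log2 scale (adjusted p = 0.00018), a call kept under every alternative, whereas 16 HPI against control did not pass (-0.21 ± 0.09, adjusted p = 0.104). An antisense gene overlaps 12.2% of its exon bases. Kcnk10, its close relative TREK-2 and the most abundant K2P gene, had 82.3, 78.7 and 63.5 CPM in control, 86.7, 83.0 and 74.0 CPM at 8 HPI and 75.1, 66.3 and 58.3 CPM at 16 HPI. It fell by 0.29 ± 0.05 between the latter (adjusted p = 0.000670, and 0.354 without the block). The K2P gene that was higher at 16 HPI was Kcnk1, named after its values were seen, which had 4.12, 9.29 and 2.17 CPM in control and 4.83, 11.8 and 3.73 CPM at 16 HPI (0.41 ± 0.12, adjusted p = 0.0189). Within batches it was higher by 0.23, 0.35 and 0.75. This call was lost without the block (0.840), by DESeq2 (0.0776) and without control replicate 2 (0.0640) or 3 (0.0965) or 16 HPI replicate 3 (0.0607).

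Among the inward rectifiers, the G protein-gated GIRK subunits Kcnj3 and Kcnj6 moved in opposite directions at 16 HPI. The other GIRK genes, Kcnj5 and Kcnj9, were not among the tested genes. Kcnj3 encodes GIRK1, which needs a partner such as GIRK2, encoded by Kcnj6, to form a working channel at the surface. Kcnj3 (chromosome 2, 55435970 to 55598145 on GRCm38) had 12.8, 5.53 and 5.49 CPM in control, 11.1, 4.24 and 4.04 CPM at 8 HPI, 5.69, 2.72 and 2.32 CPM at 16 HPI and 8.27, 3.65 and 4.98 CPM at 24 HPI. The groups overlapped through the high replicate 1, but each batch was lower at 16 HPI, by -1.16, -0.996 and -1.20 on the log2 scale. The fitted value was -1.15 ± 0.14 (adjusted p = 8.19e-06, and 0.217 without the block). It was -0.47 ± 0.13 at 24 HPI (adjusted p = 0.0171), a call lost without the block (0.744), without control replicate 1 (0.118) and without 24 HPI replicate 1 (0.118) or 2 (0.0820). A noncoding gene on the other strand, Gm26794, overlaps 31.1% of the exon bases of Kcnj3. It had a mean of 0.455 CPM in control and 0.360 CPM at 16 HPI.

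Kcnj6 (chromosome 16, 94748636 to 94997701 on GRCm38) was near the limit of detection until 16 HPI. It had 1, 5 and 7 counts in control and 24, 21 and 19 counts at 16 HPI, which were 0.0508, 0.369 and 0.337 CPM against 1.71, 1.19 and 1.03 CPM. No library of another group reached 1 CPM, so the gene passed the filter through its 16 HPI libraries. The log2 fold change was 2.38 ± 0.47 (adjusted p = 0.000830), between 1.85 and 2.74 over all alternatives, and stayed past the threshold in each. Within batches 1, 2 and 3 it was 3.49, 1.44 and 1.34, and the value of batch 1 rests on 1 count in control. The fold of a gene with so few counts in control depends on the prior count of the fit. Testing all genes with at least 10 counts over the 18 libraries, where 90 Kcn genes entered, gave 2.39 (adjusted p = 0.000293). At 24 HPI Kcnj6 had 8, 13 and 18 counts, and 1.41 ± 0.53 did not pass (adjusted p = 0.0764).

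The other Kir genes tested showed smaller or less even changes. Kcnj12, a strong rectifier that stabilizes the resting potential, had 20.3, 14.7 and 17.3 CPM in control, 15.0, 11.5 and 10.3 CPM at 8 HPI and 13.5, 13.5 and 12.2 CPM at 16 HPI. It was lower at 8 HPI (-0.53 ± 0.12, adjusted p = 0.00951, and 0.112 without 8 HPI replicate 3) and at 16 HPI (-0.40 ± 0.12, adjusted p = 0.0167). Both calls were lost without the block (0.454 and 0.277), and the 16 HPI call also without control replicate 1 (0.0551) or 3 (0.0530) or 16 HPI replicate 1 (0.124) or 3 (0.0940). Kcnj2, of the same family, ranged from 0.289 to 3.56 CPM in control and from 0.540 to 1.56 CPM at 16 HPI. It fell by 1.18 ± 0.34 on the log2 scale from 8 to 16 HPI (adjusted p = 0.0212), a call lost without the block (0.620), without 8 HPI replicate 3 (0.0737) and without 16 HPI replicate 1 (0.229). With 10 to 22 counts at 16 HPI, its batches disagreed in sign against control, at -1.13, -0.44 and 0.70.

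Of the 5 tested genes of the SK/IK and Slo families, 2 were lower at 16 HPI (11.5% of all genes), and Kcnt1 also passed at 1, 8 and 24 HPI. It encodes the sodium-activated Slack channel, which damps firing in sensory neurons. Kcnt1 had 52.7, 46.1 and 57.0 CPM in control, 40.3, 36.6 and 42.7 CPM at 1 HPI, 41.2, 37.6 and 45.4 CPM at 8 HPI and 31.3, 34.5 and 38.7 CPM at 16 HPI. Every one of these injured libraries was below every control library, but at 3 HPI, with 49.5, 38.4 and 56.4 CPM, and at 24 HPI, with 38.8, 39.2 and 51.1 CPM, the groups overlapped. It was the 1 Kcn gene that passed at 1 HPI (-0.38 ± 0.07, adjusted p = 0.0317), and that call was lost in 8 of 12 alternatives, including each fit without a control or 1 HPI library (adjusted p between 0.0800 and 0.176) and the fit without the block (1.00). At 8 HPI it was -0.33 ± 0.08 (adjusted p = 0.0106). That call was lost without the block (0.526), without control replicate 1 (0.0552) and without 8 HPI replicate 3 (0.0732). At 16 HPI it was -0.57 ± 0.08 (adjusted p = 1.51e-05), which held under every alternative. At 3 HPI it did not pass (-0.12 ± 0.07, adjusted p = 0.466). At 24 HPI it was -0.27 ± 0.07 (adjusted p = 0.0148), lost without the block (0.442), with the GC and length correction (0.0578) and without control replicate 1 (0.0816) or 24 HPI replicate 1 (0.108). Kcnma1, the pore of the BK channel that shapes the afterhyperpolarization, had 45.8, 45.7 and 41.9 CPM in control and 48.8, 29.6 and 36.5 CPM at 16 HPI (-0.23 ± 0.10, adjusted p = 0.102). Kcnn1, the tested SK gene, had 9.66, 13.9 and 15.4 CPM in control and 9.03, 14.7 and 14.1 CPM at 16 HPI (-0.05 ± 0.09, adjusted p = 0.779). Kcnmb4, the neuronal BK beta subunit, had 0.762, 1.03 and 1.54 CPM in control and 1.28, 1.87 and 2.38 CPM at 16 HPI, higher in each batch but not past the threshold (0.70 ± 0.27, adjusted p = 0.0636). The antisense genes Kcnmb4os2 and Kcnmb4os1 overlap 20.85% and 10.68% of its exon bases. Kcnmb4os2 had a mean of 0.744 CPM in control and 0.621 CPM at 16 HPI.

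Genes whose proteins anchor, cluster or modify potassium channels were listed beside the Kcn genes. The list also held the related HCN channels and Rest, a repressor of neuronal genes. Of the 20 listed genes 16 were tested. At 16 HPI 11 were lower (11.5% of all genes) and 2, Hcn4 and Rest, were higher (10.7%). At 24 HPI 8 were lower (9.03%) and 0 higher (5.99%). The 0 at 24 HPI was from edgeR, with 1 higher at an unadjusted p under 0.05 and 0 by DESeq2. Cntn2 and Cntnap2, which hold Kv1 channels beside the node of Ranvier, were lower by -0.55 ± 0.05 and -0.31 ± 0.06 on the log2 scale (adjusted p = 1.04e-07 and 0.000275). Cntn2 had 201 ± 15.1 CPM in control and 137 ± 5.26 CPM at 16 HPI, and the groups did not overlap. The Kv4 partner Dpp10 was lower by -0.50 ± 0.09 and Dpp6 by -0.25 ± 0.04 (adjusted p = 0.000338 and 0.000194). Ank3, the scaffold of the axon initial segment, was lower by -0.51 ± 0.09, and Amigo1, the Kv2 partner, by -0.35 ± 0.08 (adjusted p = 0.000406 and 0.00341). Among the HCN genes, which carry the hyperpolarization-activated current, Hcn4 was higher (0.40 ± 0.09, adjusted p = 0.00212), and Hcn2 (-0.12 ± 0.08) and Hcn3 (-0.06 ± 0.07) did not pass. Rest rose from 0.877 ± 0.189 to 3.66 ± 0.473 CPM (2.06 ± 0.26, adjusted p = 7.87e-06).

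Promoters were read from RefSeq on GRCm38.p6, from 250 bases before to 50 after the start, and 69 of the 94 symbols had at least 1 window, 94 windows in all. Motifs were searched on both strands as TGANTCA for AP-1, TGACGTCA for CRE, CCATNTT for YY1 and GGGCGG for the GC box, and none of these contains another. AP-1 letters were in 4.26% of Kcn windows against 7.81% of all 32851, CRE in 0 against 1.79%, YY1 in 9.57% against 16.1% and the GC box in 47.9% against 35.7%. In the 29 windows of genes lower at 16 HPI the shares were 6.9%, 0, 6.9% and 51.7%. The 250 bases before the start of the GIRK genes Kcnj3 and Kcnj6 are shown, and none of the 4 motifs lies in either. The Kcnj3 stretch is 58.4% GC with 7 CpG, and that of Kcnj6 is 64% GC with 26 CpG.
Kcnj3, chr2:55435720-55435969, plus strand: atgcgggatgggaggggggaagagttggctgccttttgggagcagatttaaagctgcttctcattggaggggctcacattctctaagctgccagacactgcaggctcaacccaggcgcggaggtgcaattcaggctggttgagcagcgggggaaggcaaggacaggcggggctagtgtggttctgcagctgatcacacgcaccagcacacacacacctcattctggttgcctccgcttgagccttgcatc
Kcnj6, chr16:94997697-94997946, minus strand: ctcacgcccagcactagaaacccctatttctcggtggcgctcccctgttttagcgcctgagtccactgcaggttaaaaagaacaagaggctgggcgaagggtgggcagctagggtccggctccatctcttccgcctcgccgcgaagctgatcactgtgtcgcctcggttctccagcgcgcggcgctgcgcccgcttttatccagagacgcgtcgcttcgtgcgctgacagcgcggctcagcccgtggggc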

How the data were processed

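RNA of 18 eDRG spot libraries was sequenced by the authors, and the deposited values are raw counts of reads per gene, with no normalization or batch correction. Per the labels, rRNA was depleted with Ribo-Zero Gold and cDNA was made with the SMARTer kit. The submitters' processing notes list FastQC, STAR, HTSeq and DESeq2 on mm10. The study's methods name featureCounts in place of HTSeq and an earlier GENCODE release. The strand setting of the counting is not given in the sources used here. Entries for reads assigned to no gene (25.2% to 33.2% of each library) stayed out of library sizes and tests.

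Gene names, exons and coding sequences came from GENCODE vM21 on GRCm38, which matched 47224 of the 47643 identifiers. The filter kept genes whose CPM exceeded 1 in 3 or more libraries (13771), which were normalized by TMM and fitted in edgeR 4.0.16 (R 4.3.3) by the quasi-likelihood test with terms for group and replicate number, two-sided, with Benjamini-Hochberg adjustment over all 13771 genes. Each time point was compared with control, 16 with 8 HPI and 24 with 16 HPI, and all time points together by an F test. Normalized CPM are counts over the library's TMM-scaled total, and log2 values within batches had a prior count of 2. Same-numbered libraries correlated in their deviations from the group means (r from 0.484 to 0.765 over 45 pairs). The numbers were therefore taken to pair the samples. Differently numbered libraries correlated negatively (-0.577 to -0.0423 over 90 pairs). Deviations within a group cancel, so these negative values follow from the positive ones and are no separate evidence.

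Alternatives were DESeq2's size factors, DESeq2 1.42.0, a filter of at least 10 counts over all libraries, no replicate block, the block with a GC and length correction, residual rRNA and mitochondrial genes left out, RPKM over the longest transcript, and each library left out. On simulated counts for 16 HPI against control with 13771 genes, the fit called 73 of 100 genes changed 1.5-fold and 90 of 100 changed 3-fold. There were 12 false calls among 13571. The counts were drawn with the fit's own estimates of spread and the mean of each replicate number. An error rate for the real libraries was therefore not tested. The limit of 3 counts covers counting error only, since reads carry no molecular identifiers.

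Genes were named if they passed 2-fold in any comparison, were highest of their subfamily in control, were among the 10 smallest p over the time course, or were on a list of well-known sensory neuron and glial channels. Others are said to be named after their values were seen. The members and lists were chosen with earlier results of these data known. No protein table was given, so the filter was searched in coding sequence. Results of some genes are not reported here, though counts over all Kcn genes include them.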

Additional observations from a re-analysis of the deposited data

Results flagged for a closer look

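The steps between time points were tested as differences between the effects of 2 time points against the shared control, and 23 of them passed for genes named above. From 8 to 16 HPI the log2 differences were -1.54 for Kcnk18, -1.18 for Kcnj2, -0.85 for Kcnj3, -0.79 for Kcnv1, -0.77 for Kcnd2, -0.59 for Kcnk2 and -0.50 for Kcnd3. Smaller steps down were -0.32 for Kcnip3, -0.30 for Kcnd1, -0.30 for Kcnab2, -0.29 for Kcnk10, -0.26 for Kcna6, -0.24 for Kcnb2, -0.24 for Kcnt1 and -0.19 for Kcna2. Steps up were 1.95 for Kcnj6, 0.91 for Kcnh4 and 0.54 for Kcnc2. From 16 to 24 HPI the log2 differences were 0.68 for Kcnj3, 0.67 for Kcnv1, 0.63 for Kcnd2, 0.32 for Kcnip3 and 0.30 for Kcnt1. Of these 23 steps, Kcnab2 and Kcnk2 from 8 to 16 HPI passed under every alternative, and the others were lost at least without the replicate block.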

How the results depend on the processing

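Calls of genes named after their values were seen are left out of the next counts. Of 58 calls of the other named genes, 12 were kept under every alternative. Without the replicate block 46 were lost, and 28 were lost in at least 1 fit that left out a library. Without the block, the Kcn genes that passed were 0 lower at 1 HPI, 0 in either direction at 8 HPI, 11 lower and 2 higher at 16 HPI, 2 lower at 24 HPI, 3 lower and 0 higher from 8 to 16 HPI, 0 higher from 16 to 24 HPI, and 5 over the time course. Past 2-fold it left 1 lower at 16 HPI, 0 lower at 24 HPI, and 0 higher and 0 lower from 8 to 16 HPI. DESeq2 called 1 higher and 4 lower at 1 HPI, 1 lower at 3 HPI, 2 higher at 16 HPI, and 0 past 2-fold higher from 8 to 16 HPI. With the GC and length correction and the block, 0 were lower at 1 HPI and 1 was higher at 24 HPI, and the median log2 fold change was -0.068 at 1 HPI and -0.13 at 24 HPI. With at least 10 counts, 2 were past 2-fold higher at 16 HPI (Kcnf1, at 1.88 with adjusted p = 0.0254, beside Kcnj6), 1 was higher at 24 HPI, and the medians were -0.22 at 16 HPI, -0.13 at 24 HPI and -0.14 from 8 to 16 HPI. The cause of these shifts was not tested. Shares of all tested genes are not given for the alternatives, so the counts cannot be set against them.

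Libraries were left out in turn within the groups compared, or among all 18 for the time course. The count lower was then 0 to 1 at 1 HPI, 0 to 2 at 3 HPI and 3 to 7 at 8 HPI. It was 22 to 26 at 16 HPI, 9 to 14 at 24 HPI and 11 to 18 from 8 to 16 HPI. The count higher was 0 to 1 at 8 HPI, 2 to 5 at 16 HPI, 0 to 1 at 24 HPI, 2 to 5 from 8 to 16 HPI and 4 to 9 from 16 to 24 HPI, and 32 to 37 changed over the time course. Past 2-fold, 2 to 3 were lower at 16 HPI, 0 to 1 at 24 HPI and 0 to 2 from 8 to 16 HPI, where 1 to 2 were higher. The median was -0.15 to -0.10 at 1 HPI, -0.082 to -0.041 at 3 HPI, -0.17 to -0.14 at 24 HPI and -0.19 to -0.13 from 8 to 16 HPI.

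Single values that did not pass changed sign. Kcnip1 at 16 HPI was -0.0090 with the GC and length correction and ran from -0.020 to 0.067 with a library left out, below 0 without control replicates 2 (-0.018) and 3 and 16 HPI replicate 3 (-0.012). Kcnq3 at 24 HPI was 0.028 with that correction and ran from -0.15 to 0.034, above 0 without control replicate 2 and 24 HPI replicate 3 (0.013). Kcnv1 at 24 HPI ran from -0.16 to 0.047, above 0 without control replicates 1 (0.0078) and 2 and 24 HPI replicate 2 (0.017). At 24 HPI, Kcna1 ran from -0.0099 (without control replicate 3) to 0.059, Kcnk2 from -0.021 (without 24 HPI replicate 2) to 0.13, and Kcnmb4 from -0.022 (without 24 HPI replicate 1) to 0.42. Kcnn1 at 16 HPI ran from -0.098 to 0.0069 (without control replicate 3). Depth limits Kcnj6, Kcnk18, Kcnj2 and the 39 untested genes.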
